A study of Mus musculus with 141 samples.

Results

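The 18 Mki67-positive and 23 Mki67-negative granulocyte/monocyte progenitors (GMP) of mouse bone marrow were compared by single-cell RNA sequencing. The cells were chosen by measured values. GMP were kept where nuclear-encoded genes held 50000 counts or more, the mitochondrial share of gene counts did not pass 10% and spike-in reads did not pass 50%, which left 41 of 47 GMP among 141 cells in the series. A kept cell was called positive at 50 or more Mki67 reads per 1000000 nuclear-encoded counts (CPM) and negative below 50 CPM. Mki67 chose the cells, so its values are a description: it ran from 50.4 CPM over a median of 193 to 805 CPM in positive cells, and 15 negative cells had no Mki67 read while 8 had at least 1. Just under the threshold lay GMP replicate 25 at 33.7 CPM and replicate 2 at 10.1 CPM, and just over it lay replicates 33 and 36 at 50.4 and 55.5 CPM. Reads of other genes entered the rule only through these totals and shares.

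All cells were from C57BL/6 bone marrow of 3 female mice. By the labels, GMP were live, Lin-, cKit+, Sca1-, CD34+ and CD16/32hi, taken outside the gate for basophil/mast cell progenitors (BMCP), the other population of the series. No treatment or genotype separates the sides, and no label ties a cell to a mouse. The sides are therefore 2 pools of cells from 1 sample, cells are not replicates, and differences were described by size, with no test. Positive cells held 24749115 counts in all (424835 to 2606786 per cell, median 1345750) and negative cells 30771720 (130191 to 3688848, median 1243740). The median count of nuclear-encoded reads per spike-in read was 14.9 in positive and 14.6 in negative cells. After thinning each cell to 200000 reads, a median of 5082 genes had at least 2 reads in 18 positive cells, against 4840 in 22 negative cells, since negative replicate 8 was too shallow. All limits in brackets are exact Poisson limits at 95% for a summed level, and they cover counting error only.

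Ki-67, the protein that Mki67 encodes, coats chromosomes in mitosis and is absent from resting cells. A dividing cell first licenses its origins with the MCM helicase, copies its DNA in S phase, and then raises the cyclins, kinases and spindle proteins of G2 and M phase. Genes of S phase are classically driven by E2F factors released from the retinoblastoma (RB) proteins, and genes of G2 and M phase by the MuvB complex with MYBL2 and FOXM1, which binds the cell cycle genes homology region (CHR). GMP are a transit population of the marrow, known to divide often before they form neutrophils and monocytes.

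The promoters of the genes below carried these motifs unequally. Windows of 300 bases, from 250 before to 50 after the start, came from RefSeq on GRCm38.p6. The CHR was searched as TTTGAA or TTCGAA and the E2F motif as TTTCCCGC, TTTCGCGC, TTTGCCGC or TTTGGCGC, on both strands, with overlapping matches counted. Of 104 mitosis genes listed, 87 matched a window and 57 of these (65.5%) held a CHR, as did 11 of 50 matched replication genes (22%) and 5854 of all 27025 genes with a window (21.7%). An E2F motif was in 7 of the 87 mitosis genes (8.05%), 15 of the 50 replication genes (30%) and 704 of all genes (2.605%). The 5 promoters first below are of mitosis genes that were at least 2-fold higher in positive cells, and the last 2, Mcm5 and Mcm6, are of licensing genes that were not. They were picked after the values were seen, are printed from 250 bases before to 30 after the start, and show the CHR (first 5) or the E2F motif (last 2) in capitals. The windows are chr9:70421525-70421804 for Ccnb2, chr10:69352883-69353162 for Cdk1, chr11:99024160-99024439 for Top2a and chr4:124936888-124937167 for Cdca8, all on the minus strand, and chr9:83834439-83834718 for Ttk on the plus strand. Those of the MCM genes are chr8:75109259-75109538 for Mcm5 on the plus strand and chr1:128359676-128359955 for Mcm6 on the minus strand.
Ccnb2: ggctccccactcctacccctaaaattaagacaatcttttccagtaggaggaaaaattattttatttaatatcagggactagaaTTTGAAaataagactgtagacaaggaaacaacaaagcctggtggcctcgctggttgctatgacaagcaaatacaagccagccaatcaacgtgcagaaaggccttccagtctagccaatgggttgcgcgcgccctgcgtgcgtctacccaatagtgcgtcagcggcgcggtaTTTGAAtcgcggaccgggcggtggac
Cdk1: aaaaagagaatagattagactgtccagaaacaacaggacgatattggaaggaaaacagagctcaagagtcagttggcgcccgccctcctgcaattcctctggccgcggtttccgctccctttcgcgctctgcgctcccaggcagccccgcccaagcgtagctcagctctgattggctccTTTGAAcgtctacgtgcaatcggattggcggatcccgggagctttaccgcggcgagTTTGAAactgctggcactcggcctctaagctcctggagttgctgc
Top2a: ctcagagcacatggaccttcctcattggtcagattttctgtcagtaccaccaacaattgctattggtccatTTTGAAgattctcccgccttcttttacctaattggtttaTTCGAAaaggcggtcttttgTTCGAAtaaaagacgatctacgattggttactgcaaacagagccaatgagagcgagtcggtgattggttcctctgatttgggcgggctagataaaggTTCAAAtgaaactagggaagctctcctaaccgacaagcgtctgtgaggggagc
Cdca8: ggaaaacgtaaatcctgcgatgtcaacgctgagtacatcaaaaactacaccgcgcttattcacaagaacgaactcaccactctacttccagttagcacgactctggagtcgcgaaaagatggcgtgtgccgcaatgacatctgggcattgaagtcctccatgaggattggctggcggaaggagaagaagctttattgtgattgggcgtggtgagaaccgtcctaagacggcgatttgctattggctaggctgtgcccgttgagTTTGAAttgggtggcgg
Ttk: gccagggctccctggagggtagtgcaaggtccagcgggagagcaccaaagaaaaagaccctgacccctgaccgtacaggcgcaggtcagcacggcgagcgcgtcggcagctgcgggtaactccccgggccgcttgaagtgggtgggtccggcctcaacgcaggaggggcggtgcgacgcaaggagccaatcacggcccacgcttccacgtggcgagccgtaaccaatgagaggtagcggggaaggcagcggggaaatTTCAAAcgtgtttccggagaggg
Mcm5: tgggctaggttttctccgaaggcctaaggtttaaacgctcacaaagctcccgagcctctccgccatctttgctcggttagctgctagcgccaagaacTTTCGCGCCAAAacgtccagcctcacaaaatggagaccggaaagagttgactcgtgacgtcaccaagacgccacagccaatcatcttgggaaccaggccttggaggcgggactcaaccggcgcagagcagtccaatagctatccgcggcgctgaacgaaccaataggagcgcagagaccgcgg
Mcm6: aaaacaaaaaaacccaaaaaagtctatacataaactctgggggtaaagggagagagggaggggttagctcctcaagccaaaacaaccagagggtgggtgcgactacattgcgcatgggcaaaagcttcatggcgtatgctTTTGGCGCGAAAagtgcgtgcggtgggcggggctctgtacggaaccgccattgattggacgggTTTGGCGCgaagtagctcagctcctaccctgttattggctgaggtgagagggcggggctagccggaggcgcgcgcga
In Cdk1 the CHR matches start at -71 and -15 from the start site, and that promoter also holds 1 match to the E2F motif. In Mcm5 and Mcm6 pairs of E2F matches overlap, so a stretch of capitals can hold both. A match is a description of these letters, not a measured binding site.

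Mitosis genes were more often at least 2-fold higher in Mki67-positive GMP than genes in general, while DNA replication genes passed 2-fold about as often as genes in general and were shifted upward by less. The ratio used throughout is the log2 of summed CPM plus 1 in positive over negative cells, on which 13420 genes with at least 1 CPM in either side were compared. Over all of them the median was 0.06, 2675 genes (19.9%) were 2-fold or more higher in positive cells and 2386 (17.8%) were 2-fold or more lower. Of 103 mitosis genes compared, 69 (67%) were at least 2-fold higher, 2 were lower by that much and 32 were neither. The list's median was 1.55 (1.31 to 2.01, order-statistic limits over genes). Of 60 replication genes, 11 (18.3%) were at least 2-fold higher and 1 was lower by that much, and the median was 0.50 (0.28 to 0.77). Of these 60, 41 had a ratio above 0, against 7082 of all 13420 genes (52.8%). By the pair share described below, 41 lay above 50%, against 7707 of all genes.

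**Figure D1:**
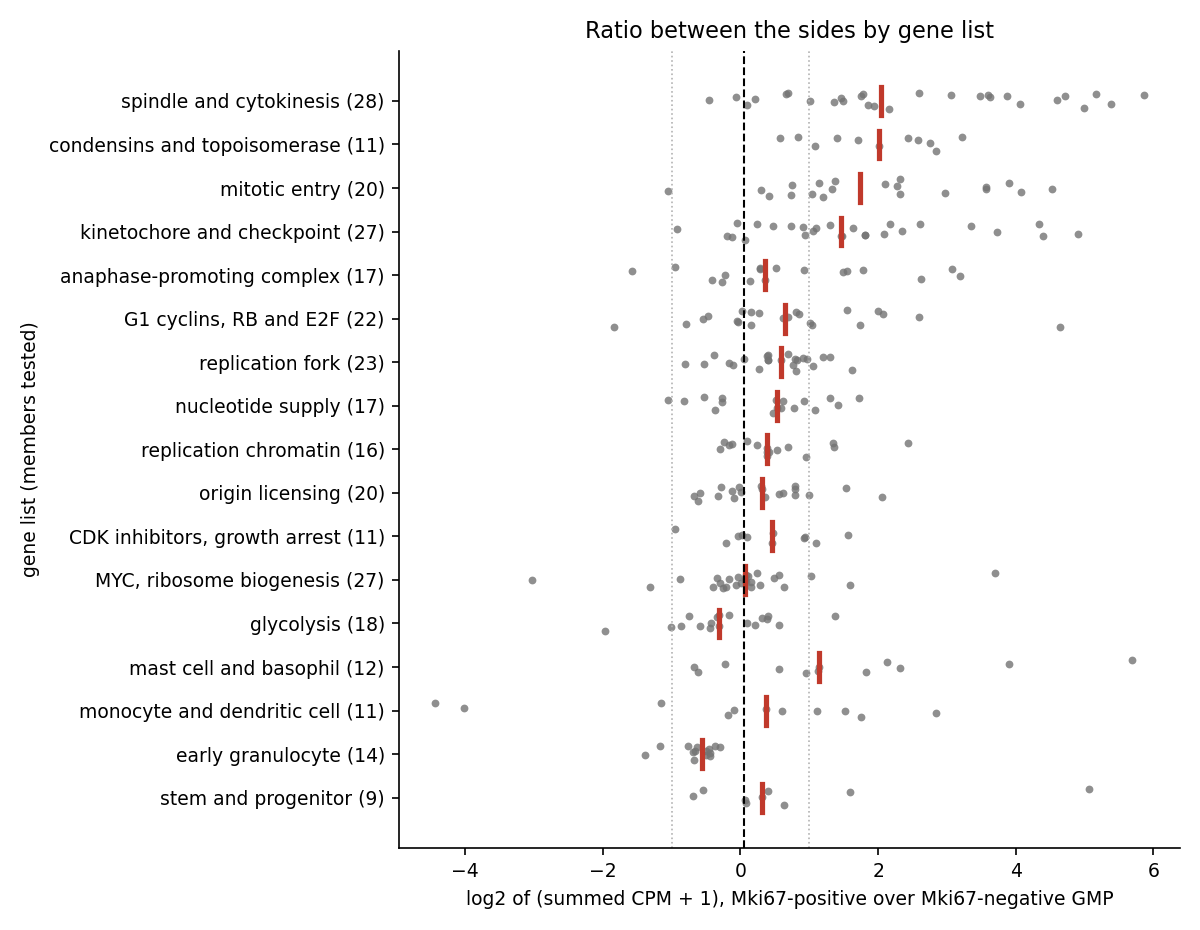
Log2 of summed CPM plus 1 in Mki67-positive over Mki67-negative GMP (x axis) for members of 17 gene lists (y axis, members compared in brackets), with 1 dot per gene and a red bar at each list's median. The dashed line is the median of all genes at 0.06 and dotted lines mark a 2-fold difference. Red bars lie at 2.05 for spindle and cytokinesis genes, 0.31 for origin licensing genes and -0.56 for early granulocyte genes.

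Of the 20 genes of mitotic entry, 15 were at least 2-fold higher in positive cells and 1 was at least 2-fold lower. Ccna2, which encodes cyclin A2, the cyclin of S phase and mitotic entry (chr3:36564865-36572150), ran from 0 over 60.9 to 477 CPM in positive cells and from 0 over 0 to 99.9 CPM in negative cells. It reached 50 CPM in 10 of 18 positive cells and in 1 of 23 negative cells, replicate 42. Its summed level was 136 CPM (131 to 140) against 7.12 CPM (6.21 to 8.12), or 1.14 CPM without replicate 42, a log2 ratio of 4.07. As a measure that weighs cells alike, the positive cell had the higher Ccna2 level in 75.8% of the 414 pairs of a positive with a negative cell. Such a pair share of at least 75% was found in 40 of all genes compared (0.298%).

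Cdk1, the kinase that cyclins A and B activate, stood at 239 CPM in positive and 91.7 CPM in negative cells, a log2 ratio of 1.37. It had 10 or more thinned reads in 12 of 18 positive and 10 of 22 negative cells. Ccnb1 and Ccnb2, the B-type cyclins, were at 38.3 against 6.86 CPM and at 225 against 88.6 CPM. Without the negative cells that held most reads of each, replicates 27 and 46, the negative levels were 3.996 and 27.3 CPM. Both reached 50 CPM in few cells, 5 of 18 against 2 of 23 for Ccnb1 and 8 of 18 against 3 of 23 for Ccnb2. The mitotic kinase gene Plk1 was at 54.1 CPM, or 35.8 CPM without replicate 6, against 6.01 CPM, nearly all of it in replicate 11 (0.0699 CPM without it).

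Aurkb, which encodes the kinase of the chromosomal passenger complex, was at 149.7 CPM, or 82.8 CPM without replicate 6, against 9.10 CPM, or 6.03 CPM without replicate 4. Aurka, the centrosomal kinase gene, was at 86.8 CPM, or 44.1 CPM without replicate 6, against 16.6 CPM, or 10.3 CPM without replicate 37. Replicate 6 thus held the most positive reads of all 3 kinase genes, and it also held the highest Mki67 level. Of the transcription factors of this program, Mybl2 was at 71.2 against 30.5 CPM, and Foxm1 at 22.7 CPM, or 9.38 CPM without replicate 31, against 1 read in all negative cells. Cdc25c, a phosphatase that activates CDK1, had no negative read and was at least 111-fold higher over the floor of 3 counts on the negative side, but only at 1.90 CPM without positive replicate 18. Plk4, the kinase of centriole duplication, went the other way at 6.10 against 13.7 CPM, or 8.60 CPM without negative replicate 40, which left it short of 2-fold.

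Genes of chromosome condensation followed, with 9 of 11 at least 2-fold higher, none lower and a median of 2.01. Top2a, the topoisomerase that untangles sister chromosomes and the second marker of cycling cells used here (chr11:98992943-99024189), ran from 0 over 221 to 1245 CPM in positive cells and from 0 over 3.47 to 549 CPM in negative cells. The sides overlapped: Top2a reached 50 CPM in 11 of 18 positive cells (61.1%) and in 8 of 23 negative cells (34.8%). Summed, it stood at 470.5 CPM (462 to 479) against 68.7 CPM (65.8 to 71.7), a log2 ratio of 2.76. Ncapd2, a condensin subunit, ran from 0 over 91.3 to 708 CPM in positive and from 0 over 4.39 to 345 CPM in negative cells, a log2 ratio of 2.01 with a pair share of 72.5%. Smc4, a core condensin subunit, was instead seen in nearly every cell, with 50 CPM or more in 16 of 18 positive and 20 of 23 negative cells and a log2 ratio of 0.58.

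Of 27 kinetochore and spindle checkpoint genes, 17 were at least 2-fold higher and none lower, with a median of 1.46. Bub1b, which encodes the checkpoint kinase BUBR1, ran from 0 over 13.3 to 496 CPM in positive cells and from 0 over 0 to 201 CPM in negative cells. It reached 50 CPM in 8 of 18 and 1 of 23 cells, and its negative level of 10.2 CPM was 0.205 CPM without replicate 28. Ttk, the checkpoint kinase gene whose promoter is shown above, was at 40.8 CPM, or 24.1 CPM without replicate 9, against 12 reads in all negative cells (0.390 CPM), 1 of them left without replicate 40. Ndc80, of the outer kinetochore, was at 52.9 CPM, or 32.7 CPM without replicate 31, against 1.56 CPM, or 0.468 CPM without replicate 19. Cdca8 and Birc5 of the chromosomal passenger complex were at 179 against 41.4 CPM and at 146 against 13.5 CPM, or 8.20 CPM without negative replicate 4. Mad2l1, a checkpoint gene, differed less, at 182 against 64.96 CPM, and it reached 50 CPM in 10 cells of each side. Sgo1, which guards centromeric cohesion, had a log2 ratio of -0.92, and 1 positive cell, replicate 16, held most of its positive reads (23.0 CPM with and 1.79 CPM without that cell).

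Spindle and cytokinesis genes had the highest median of the 5 mitosis lists, 2.05, with 22 of 28 at least 2-fold higher and none lower. Tpx2, which activates Aurora A on the spindle, ran from 0 over 8.17 to 362 CPM in positive cells and from 0 over 0 to 186 CPM in negative cells. Its negative level was 2.57 CPM, or 0.132 CPM without replicate 1, so that 1 negative cell held nearly all of it. Kif23, the kinesin of the midbody, was at 64.97 CPM, or 26.3 CPM without replicate 6, against 4 reads in negative cells (0.130 CPM, or 0.0659 CPM without replicate 1). Tubb5, a beta-tubulin gene read in every cell, ran from 226 over 1475 to 5163 CPM in positive and from 101 over 683 to 1952 CPM in negative cells. At 2067 CPM (2049 to 2085) against 732 CPM (723 to 742) its log2 ratio was 1.495, and its pair share was 76.3%, so the difference was spread over the cells. Stmn1, which encodes a tubulin-binding protein, was likewise read widely, at 139 against 85.7 CPM with a pair share of 70.3%. Kif2c, Kif20a and Aspm of this list had no negative read and were at least 240-fold, 358-fold and 160.4-fold higher, but Kif20a was at 0.135 CPM without replicate 6, Kif2c at 10.3 CPM without replicate 9 and Aspm at 9.05 CPM without replicate 18. With these, Cdc25c and Kif4 at their lower bounds the median of all mitosis genes was again 1.55. It could not change, since these genes already lay above it and the bounds only raised them.

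The anaphase-promoting complex and the genes of mitotic exit were the least shifted mitosis list, with 6 of 17 at least 2-fold higher, 1 lower and a median of 0.35. The activator Cdc20 was at 162 CPM, or 107 CPM without replicate 6, against 54.7 CPM, yet its pair share was 51.4% and it reached 50 CPM in 6 of 18 and 7 of 23 cells. Fbxo5, which encodes the inhibitor EMI1 that is made before mitosis, was at 59.96 against 8.94 CPM, or 2.86 CPM without negative replicate 5. Anapc1, the scaffold subunit, ran from 0 over 197 to 654 CPM in positive and from 0 over 22.3 to 346 CPM in negative cells, with a pair share of 78.4%. Anapc10, another subunit, ran the other way, at 12.4 CPM, or 6.56 CPM without replicate 9, against 39.1 CPM.

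Across all mitosis genes, 93 of 103 had a pair share above 50%, against 7707 of 13420 genes in general, while only 4 (Ccna2, Tubb5, Cit and Anapc1) reached 75%. After thinning to 200000 reads, 86 of the 103 had 10 or more reads in a larger share of positive than of negative cells, 15 in a smaller share and 2 in an equal one. Of the 60 replication genes 42 did so, and among all genes 6412 of 13420 (47.8%). The median mitosis gene had that many reads in 33.3% of positive and 13.6% of negative cells, and the median replication gene in 58.3% and 52.3%. In 33 of the 69 genes that were at least 2-fold higher, 1 negative cell held over 50% of the negative reads. That was also so in 1298 of the 2675 genes in general that were higher by that much.

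**Figure D2:**
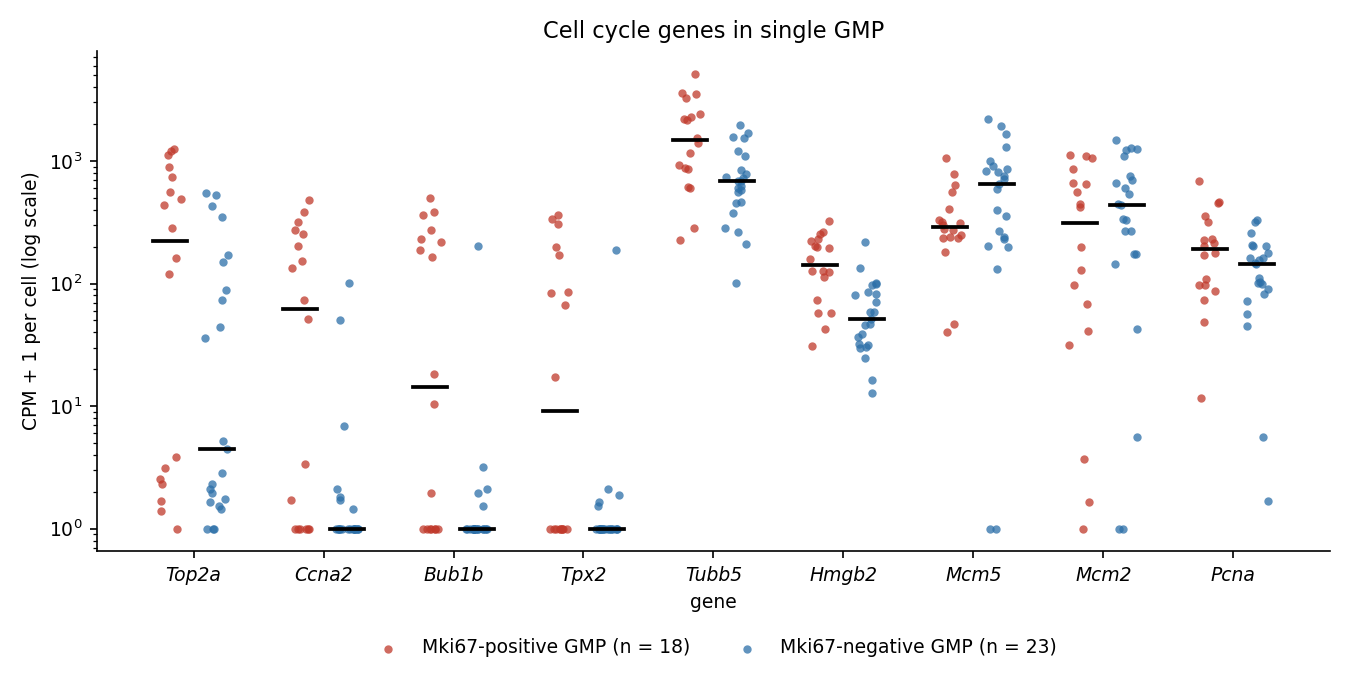
CPM plus 1 in each cell (y axis, log scale) for 9 cell cycle genes (x axis), in 18 Mki67-positive (red) and 23 Mki67-negative GMP (blue), with a black line at each median. Ccna2, Bub1b and Tpx2 have medians of 60.9, 13.3 and 8.17 CPM in positive cells and 0 in negative cells, while Mcm5 and Mcm2 have higher medians in negative cells, 650.0 and 437 CPM, than in positive cells, 288 and 310 CPM.

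Origin licensing genes were read widely on both sides. Of 20 such genes, 3 (15%) were at least 2-fold higher in positive cells, against 19.9% of all genes, and none was lower. The median was 0.31 (-0.12 to 0.79). Mcm5, a subunit of the helicase (chr8:75109569-75128439), ran from 38.99 over 288 to 1061 CPM in positive cells and from 0 over 650.0 to 2189 CPM in negative cells. It reached 50 CPM in 16 of 18 positive and 21 of 23 negative cells, and its summed level was 399.7 CPM (391.8 to 407.6) against 612 CPM (603 to 621), a log2 ratio of -0.61. Mcm2 ran from 0 over 310 to 1114 CPM and from 0 over 437 to 1487 CPM, with a log2 ratio of -0.29. The other helicase subunits lay on both sides of 0, with ratios of -0.01 for Mcm3, -0.12 for Mcm4, 0.35 for Mcm6 and 0.61 for Mcm7.

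The loading factor gene Cdt1, whose protein is destroyed once S phase starts, was at 183 against 275 CPM, a log2 ratio of -0.59, and Cdc6 at 49.3 against 61.8 CPM. The 3 licensing genes that were at least 2-fold higher were Gins3, Cdc7 and Dbf4. Gins3, of the active helicase, was at 60.6 against 13.7 CPM, or 3.49 CPM without negative replicate 28. Cdc7, the kinase that fires origins, was at 112 against 38.3 CPM, and its partner Dbf4 was at 54.3 CPM, or 31.2 CPM without replicate 6, against 26.6 CPM, or 16.5 CPM without replicate 46. Without the GMP that held Gata2, a mast cell and basophil factor, at 50 CPM or more, Cdc7 had a log2 ratio of -0.38.

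Replication fork genes were slightly higher in positive cells, with a median of 0.59, or 0.36 with the cells' CPM averaged. Of 23 such genes, 4 (17.4%) were at least 2-fold higher, against 19.9% of all genes. Pcna, the gene of the sliding clamp of the polymerases, ran from 10.7 over 189 to 679.6 CPM in positive and from 0.681 over 144 to 328 CPM in negative cells, a log2 ratio of 0.77. It was found at 50 CPM or more in 16 of 18 and 20 of 23 cells, so the sides overlapped over most of their range. Rfc4, a subunit of the clamp loader, ran from 0 over 196 to 353 CPM and from 0 over 82.8 to 305 CPM, with a log2 ratio of 1.31 and a pair share of 75.6%. Clspn, the checkpoint adaptor of the fork, was at 86.5 against 27.4 CPM, or 10.02 CPM without negative replicate 27. Pola2 and Prim1, of the polymerase alpha and primase complex, had ratios of 1.20 and 1.06. Without the GMP at 50 CPM or more of Gata2, the ratio of Clspn was -0.61.

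Among 17 genes of nucleotide supply, 4 (23.5%) were at least 2-fold higher, against 19.9% of all genes, and 1 was lower. The median was 0.53, with limits over genes that span 0 (-0.28 to 0.93). The ribonucleotide reductase genes Rrm1 and Rrm2 were at 338 against 177 CPM and at 244 CPM, or 156 CPM without replicate 30, against 142 CPM. Tyms, thymidylate synthase, was at 259.6 against 172 CPM. Cad, the first enzyme of pyrimidine synthesis, was at 201 against 59.96 CPM. Mthfd1, of the folate cycle, was at 92.7 CPM, or 58.2 CPM without replicate 6, against 194 CPM. Its ratio of -1.05 changed sign without the GMP at 50 CPM or more of Gata2, where it was 0.49.

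Of 16 genes of chromatin in replication, 3 (18.75%) were at least 2-fold higher, against 19.9% of all genes. Hmgb2, a chromatin protein of cycling cells, ran from 29.9 over 142 to 325 CPM in positive cells and from 11.8 over 50.0 to 218 CPM in negative cells, and the positive cell was higher in 82.1% of pairs. Its summed level was 167 CPM (162 to 172) against 65.1 CPM (62.2 to 67.97), a log2 ratio of 1.35. Asf1b, a histone chaperone, was at 152 against 27.3 CPM, or 14.03 CPM without negative replicate 5. The maintenance factor Uhrf1 and the DNA methyltransferase Dnmt1, which work together at the fork, had ratios of -0.13 and 0.69.

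Replication-dependent histone genes are hard to read by this protocol, since their messages mostly lack a poly(A) tail and the copies are near-identical. Of 68 such genes, 44 were compared, with a median of 0.87. At least 2-fold higher were 21 (47.7%), against 19.9% of all genes, and 6 (13.6%) were lower, against 17.8%. Their summed level ran from 59.4 over 433 to 1672 CPM in positive and from 10.8 over 244 to 1210.5 CPM in negative cells.

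Genes of G1 and of the entry into S phase were mixed, with a median of 0.65. Of 22 compared, 8 (36.4%) were at least 2-fold higher, against 19.9% of all genes, and 1 (4.55%) was lower, against 17.8%. Ccnd2, which encodes a D-type cyclin, ran from 1.53 over 321 to 1067 CPM in positive and from 153 over 484 to 1083 CPM in negative cells, and the positive cell was higher in 30.9% of pairs. Its summed level was 353 CPM (346 to 360) against 515 CPM (507 to 523). The other D-type cyclin genes were Ccnd3, at 167 against 163 CPM, and Ccnd1, at 33.7 CPM, or 16.9 CPM without replicate 6, against 10.9 CPM, or 4.59 CPM without negative replicate 25. Cdk4 and Cdk6, the kinases of the D-type cyclins, were nearly equal, at 932 against 952 CPM and at 1415 against 1461 CPM. Of the E-type cyclins, which drive S phase, Ccne2 was at 101 CPM, or 56.4 CPM without replicate 30, against 24.6 CPM. Ccne1 was at 9.45 CPM, or 0.516 CPM without replicate 36, against 36.4 CPM.

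The activating factor gene E2f1 was at 57.1 against 51.4 CPM, and E2f2 at 45.3 against 0.845 CPM, or 0.0659 CPM without negative replicate 1. The late repressors E2f7 and E2f8, which silence E2F genes after S phase, were at 23.0 CPM, or 15.3 CPM without replicate 3, against 2.99 CPM, or 0.165 CPM without replicate 1, and at 153 against 75.3 CPM. Rbl1, the RB relative p107, was at 135 against 39.8 CPM, or 26.5 CPM without negative replicate 40.

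As a list, brakes on the cycle were not higher in negative GMP. Of 16 CDK inhibitor and growth arrest genes, 11 were compared and the median was 0.46 (-0.21 to 1.09). In positive cells 2 of them (18.2%) were at least 2-fold higher, against 19.9% of all genes, and none was lower by that much, against 17.8%. Of the 11, 8 had a ratio above 0, and the lowest ratio was -0.95. Cdkn1b, the gene of the inhibitor p27, was low on both sides, at 5.94 against 3.997 CPM, or 2.05 CPM without negative replicate 10. Cdkn1a, the gene of p21, was at 59.9 CPM, or 33.2 CPM without replicate 30, against 27.6 CPM, or 14.3 CPM without replicate 42. It had a log2 ratio of -0.29 without the GMP at 50 CPM or more of Gata2. The antiproliferative genes Btg1 and Btg2 were at 40.5 against 20.8 CPM and at 90.3 against 46.6 CPM.

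Growth genes had a median close to that of all genes, and a smaller share of them passed 2-fold. Of 27 genes of the MYC network and ribosome biogenesis, 3 (11.1%) were at least 2-fold higher and 2 (7.41%) lower. The shares of all genes were 19.9% and 17.8%. The list's median was 0.07, against 0.06 for all genes. Myc itself, a driver of cell growth, ran from 12.1 over 412 to 1944 CPM in positive and from 127 over 782 to 2262 CPM in negative cells. The positive cell had the higher Myc level in 36.7% of pairs, while the summed levels were 692 and 722 CPM. Mxd1, which encodes a MYC antagonist of differentiating myeloid cells, was at 32.7 against 1.59 CPM, or 0.280 CPM without negative replicate 11, with 10 or more thinned reads in 6 of 18 and 0 of 22 cells.

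Ribosomal protein genes had a median of 0.07 over 84 genes, with 6 (7.14%) at least 2-fold higher and none lower. Nuclear-encoded oxidative phosphorylation genes had a median of 0.02 over 92 genes, with 2 (2.17%) higher and 3 (3.26%) lower. Glycolysis genes had a median of -0.31 over 18 genes, with 1 (5.56%) higher and 2 (11.1%) lower. Over all genes these shares were 19.9% higher and 17.8% lower. The summed level of ribosomal protein genes had medians of 22018 CPM in positive and 22820.2 CPM in negative cells, and the ranges overlapped, from 16971 to 34981 CPM and from 16720.1 to 30163 CPM.

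The cells of each side varied widely. The summed level of mitosis genes ran from 4051 over 10055 to 22815 CPM in positive cells and from 2524 over 4872 to 10841 CPM in negative cells. It lay above the highest negative cell in 7 positive cells, and above the median of all GMP in 13 of 18 positive and 7 of 23 negative cells. After thinning, positive cells had 10 or more reads in 11 to 74 of the mitosis genes (median 40) and negative cells in 11 to 42 (median 24), and 9 positive cells lay above 42. For replication genes these counts were 10 to 49 (median 38) and 7 to 50 (median 35), and no positive cell lay above the highest negative one. The summed level of replication genes was above the median of all GMP in 9 of 18 positive and 11 of 23 negative cells.

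Genes detected per cell moved with this in part. The number of genes with at least 2 thinned reads was above the median of all GMP in 12 of 18 positive and 8 of 22 negative cells. Its part in the difference was not tested. At matched depth the mitosis median was 1.27 and 62 genes of that list were at least 2-fold higher. The sides differed in genes detected at that same depth, so matching depth does not remove this difference.

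**Figure D3:**
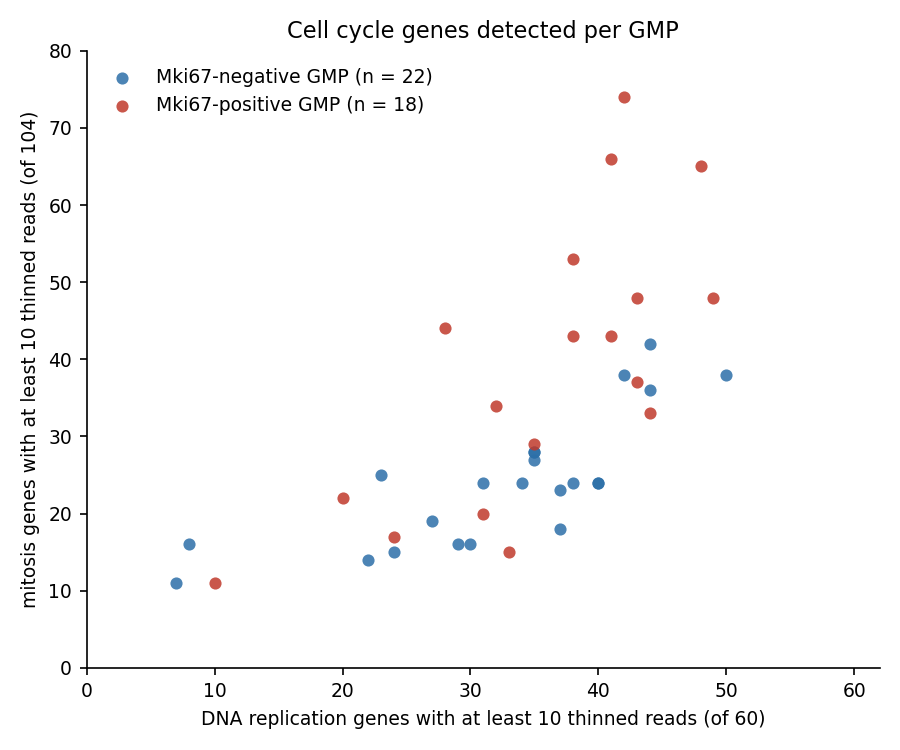
Number of mitosis genes with at least 10 reads (y axis) against the same for DNA replication genes (x axis) in each GMP thinned to 200000 reads, with 1 dot per cell, for 18 Mki67-positive (red) and 22 Mki67-negative cells (blue). The 9 cells above 42 mitosis genes are Mki67-positive, while both colours spread over the x axis, from 10 to 49 and from 7 to 50 replication genes.

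The level of Top2a parted the positive cells further, which is given as a description since Top2a is one of the mitosis genes. The 11 positive cells with Top2a at 50 CPM or more had 10 or more thinned reads in 33 to 74 mitosis genes (median 48) and in 32 to 49 replication genes (median 42). The 7 other positive cells had them in 11 to 44 mitosis genes (median 20) and in 10 to 35 replication genes (median 28). Mki67 was at 50.4 to 515 CPM (median 150.04) in those 7 cells, and at 55.5 to 805 CPM (median 220) in the 11.

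Negative cells also split. Of the 8 with Top2a at 50 CPM or more, 7 were deep enough for thinning and had 24 to 42 mitosis genes (median 28) and 31 to 50 replication genes (median 40). The 15 other negative cells had 11 to 38 mitosis genes (median 19) and 7 to 42 replication genes (median 30). By medians, cells with both Mki67 and Top2a had the most mitosis genes, and positive cells without Top2a had medians close to those of negative cells without it.

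Early granulocyte genes were lower in positive cells by a modest amount. None of the 14 had a ratio above 0, against those 52.8% of all genes, and the median was -0.56 (-0.76 to -0.44). At least 2-fold lower were 2 of them (14.3%), against 17.8% of all genes. By the pair share, which weighs cells alike, 3 of the 14 lay above 50%. Mpo, which encodes myeloperoxidase, ran from 1038 over 23273 to 46766 CPM in positive and from 509 over 33889 to 68277 CPM in negative cells. The ranges overlapped nearly whole, the positive cell was higher in 28.7% of pairs and the summed levels were 23713 and 37748 CPM, a log2 ratio of -0.67. Elane, the gene of neutrophil elastase, ran from 6.72 over 4257 to 17070 CPM and from 19.7 over 5458 to 23150 CPM, with a ratio of -1.17 and a pair share of 38.6%. Cebpe, a transcription factor of granule maturation, was at 34.9 CPM, or 20.9 CPM without replicate 45, against 92.975 CPM, and reached 50 CPM in 5 of 18 and 10 of 23 cells. Averaging the cells' CPM in place of summing reads gave the list a median of -0.25.

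Genes of the sorting gate were read on both sides. Kit was at 336 against 319 CPM and Cd34 at 560.5 against 817 CPM. Fcgr3, which encodes CD16, ran from 0 over 168 to 636 CPM in positive and from 2.20 over 324 to 1812 CPM in negative cells, a log2 ratio of -1.36. Ly6a, which encodes Sca1 and is excluded by the gate, was at 3.27 CPM, or 0.469 CPM without replicate 31, against 0.422 CPM, or 0.239 CPM without negative replicate 28. It reached 50 CPM in 1 positive cell, replicate 31, at 54.4 CPM, and in 0 negative cells. Itgb7, the integrin that marks the BMCP gate, was at 102 CPM, or 49.3 CPM without replicate 30, against 5.88 CPM, or 1.11 CPM without negative replicate 4.

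Genes of the monocyte, dendritic cell, mast cell and basophil lineages depended on few cells. Irf8, the factor of monocytes and dendritic cells, reached 50 CPM in 10 of 18 positive and 10 of 23 negative cells, at 255 against 289.6 CPM. Gata2, the factor of mast cells and basophils, reached 50 CPM in 8 of 18 and 11 of 23 cells and 500 CPM in 3 cells of each side. Its level was 405 CPM, or 207 CPM without replicate 30, against 183 CPM, or 102 CPM without negative replicate 24. Cpa3, the mast cell carboxypeptidase gene, was at 1264 against 576 CPM and at 1000 CPM or more in 6 cells of each side. Of 12 mast cell and basophil genes compared, 7 (58.3%) were at least 2-fold higher and none lower. The shares of all genes were 19.9% and 17.8%. The list's median pair share was only 52.7%, and its median log2 ratio was 1.14 (-0.23 to 2.31). Without positive replicate 3 that median was 0.74, and without negative replicate 34 it was 1.87.

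The monocyte and dendritic cell list had 4 of 11 genes (36.4%) at least 2-fold higher and 3 (27.3%) lower. The shares of all genes were 19.9% and 17.8%. The list's median pair share was 50.8%, and its median log2 ratio was 0.37 (-4.01 to 1.75), or 0.06 without replicate 30. Without the 8 positive and 11 negative GMP with Gata2 at 50 CPM or more, the mitosis median was 1.51, while that of replication genes was 0.20. The 7 mast cell and basophil markers summed to 4.32 to 9498 CPM in positive cells (median 375) and 3.22 to 6070.0 CPM in negative cells (median 279), with Fcer1a at 0 on both sides. The 5 monocyte and dendritic cell markers summed to medians of 239 and 213 CPM, with none at 0. The part of these cells in the list differences was not tested. Markers of other lineages were rarer: the lymphoid genes Cd3e and Cd79a and the platelet gene Pf4 had no read on either side. The megakaryocyte markers summed to 1070.5 CPM or less in any positive and 1721 CPM or less in any negative cell. The erythroid markers summed to 297 CPM or less in any positive cell and 126 CPM or less in any negative cell, and the eosinophil markers to 6.02 and 351 CPM or less.

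**Figure D4:**
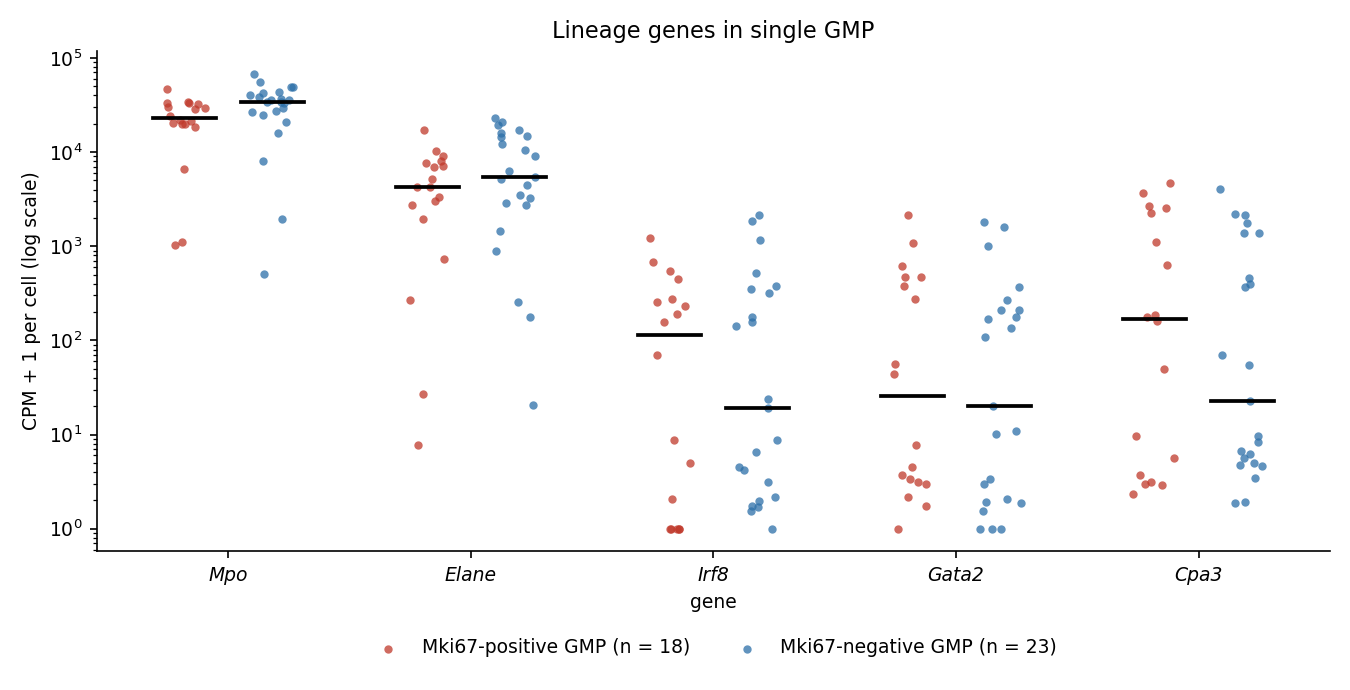
CPM plus 1 in each cell (y axis, log scale) for 5 lineage genes (x axis), in 18 Mki67-positive (red) and 23 Mki67-negative GMP (blue), with a black line at each median. Gata2 is at 500 CPM or more in 3 cells of each side, and Mpo has a median of 23273 CPM in positive and 33889 CPM in negative cells.

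Immediate early genes are the first response to stimulation or to handling. Of 10 compared, 5 (50%) were at least 2-fold higher, against 19.9% of all genes, and none was lower, against 17.8%. The median was 0.99, or 0.48 with the cells' CPM averaged, and the median pair share was 52.3%. Per cell, the list's summed level had medians of 444 CPM in positive and 420 CPM in negative cells. Fos was at 275 CPM, or 84.98 CPM without replicate 3, against 89.8 CPM, or 33.3 CPM without negative replicate 8. With the cells' CPM averaged its ratio was -1.29, and replicate 8, the shallowest cell, was at 13388 CPM. Whether this list moved with handling was not tested.

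Genes were also named over all genes by a rule of size. The 12 largest ratios upward held Tpx2, Ttk, Ndc80 and Spc25 of the mitosis lists, E2f2 and the receptor gene Flt3, with Ssh3, Crem, Phtf1, Plcl2, Polh and Cip2a. Polh, a translesion DNA polymerase gene, was at 25.7 CPM against 1 read in negative cells. Cip2a, an inhibitor of the phosphatase PP2A, was at 70.5 against 1.92 CPM, or 0.635 CPM without negative replicate 19, with a pair share of 75.6%. Ssh3, a cofilin phosphatase gene, was at 76.9 CPM, or 51.2 CPM without replicate 45, against 5 reads that were all in negative replicate 34. Flt3 stood at 43.5 CPM, or 27.2 CPM without replicate 18, against 10 reads (0.325 CPM, or 0.198 CPM without negative replicate 1). The 12 largest downward were Slc25a20, Vezt, Nme7, Aco1, Mettl25, Cables1, Nom1, Numb, Slain1, Zfp213, Atrnl1 and Unc45a, and none is in a list. Slc25a20, the mitochondrial carnitine carrier gene, was at 1 read against 46.1 CPM, and Nme7 had no positive read and was at least 272-fold lower over the positive floor of 3 counts. Each of these 24 genes had 10 or more thinned reads in at most 8 cells of the higher side.

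The pair share weighs cells alike but counts any difference in level, however small. A high share therefore need not mean a difference over most cells. Zfp668 had a share of 79.6%, but 2 or more thinned reads in only 7 positive cells. Of its positive reads, 60.7% were in replicate 45. The genes of this paragraph were chosen after their values were seen. The highest shares belonged to Grb2, an adaptor of receptor signalling, at 82.9% and a log2 ratio of 1.22, to Hmgb2, and to the actin capping gene Capza1 at 81.4% and 0.67. The lowest share belonged to Arhgdib at 16.7%. It ran from 677 over 1135 to 2985 CPM in positive and from 92.2 over 2183 to 3688 CPM in negative cells, with a log2 ratio of -0.93. Txnrd1, thioredoxin reductase, had a share of 19.2% and a ratio of -1.89, with 49.4 CPM, or 26.3 CPM without replicate 6, against 186 CPM. Shares of 25% or less were found in 11 genes (0.082%).

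The contrast between the mitosis and the replication lists was seen under each alternative tried. The share of mitosis genes at least 2-fold higher lay between 60.2% and 69.9%, and that of replication genes between 11.7% and 23.3%.

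**Figure D5:**
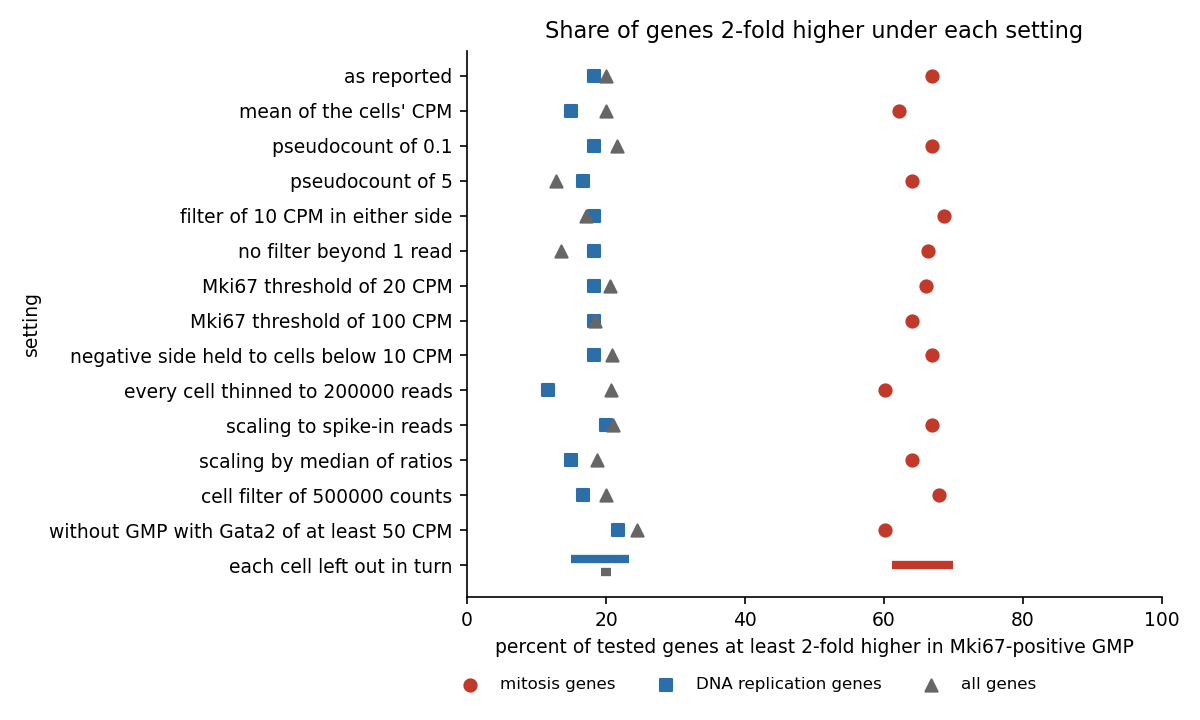
Percent of genes at least 2-fold higher in Mki67-positive GMP (x axis) under each setting (y axis), for mitosis genes (red), DNA replication genes (blue) and all genes (grey); bars in the last row span the values with each of 41 cells left out in turn. Mitosis genes stay at 60.2% or more and replication genes at 23.3% or less.

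Among BMCP, 4 of 89 kept cells reached 50 CPM of Mki67 (replicates 7, 29, 44 and 62). Against the 85 other BMCP, 86 of 103 mitosis genes were at least 2-fold higher in those 4 cells, with a median log2 ratio of 3.34. Of all 13564 genes compared there, 2309 (17.02%) were higher by that much, 6106 (45.02%) were lower by that much and the median was -0.67. Of 60 replication genes, 37 were at least 2-fold higher there, with a median of 1.399, and replicate 62 stood apart in them. Its replication genes summed to 19068 CPM, against 3627, 3005 and 2966 CPM in replicates 7, 29 and 44. The median of the 85 other BMCP was 3000 CPM. Mitosis genes summed to 3196 CPM in replicate 7, below the median of 3992 CPM in those 85, and to 11304 CPM or more in replicates 29, 44 and 62. The negative BMCP had 10 or more thinned reads in a median of 8 replication genes, against 35 in negative GMP. The difference between the populations was not tested, and 4 cells carry the BMCP values.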

How the data were processed

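Single sorted cells were sequenced with 50-base single-end reads after 23 cycles of PCR, per the labels' protocols, without molecular identifiers or strand marking. The authors deposited raw read counts per gene and cell. The submitters' processing notes name GSNAP, HTSeq 0.5.3p3 and the build mm10, with the annotation release not given in the sources used here. Of 46078 gene rows, 45143 paired with a symbol through the reference annotation, and 37 mitochondrial rows and 92 spike-in rows stayed out of the totals. Rows that name no gene stayed out too, and in the kept GMP they held 11.1% (no feature), 6.03% (ambiguous) and 27.5% (not aligned) of all reads. No column of sample values was left unused (0). No 2 GMP had identical counts.

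Counts were summed per side and divided by the side's nuclear-encoded total to give CPM, with a pseudocount of 1 and genes kept at 1 CPM or more in either side. In the pair share, ties counted 0.5. A level without a named cell leaves out the cell with the most reads of that gene on its side. Exact Poisson limits at 95% and the floor of 3 counts cover counting error only, since PCR copies are not independent molecules. Overlapping or antisense genes and near-identical copies could not be told apart. Doublets were not called. The calculation was tested on simulated data. Scripts ran in Python 3.11.15 with matplotlib 3.10.9, scipy 1.17.1, pandas 2.3.3 and numpy 2.4.6.

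The cells and gene lists were chosen with earlier results of these data known. List members could be named, and beyond them the 12 largest ratios each way among genes with 20 CPM or more on the higher side, 2 or more thinned reads in at least 25% of its cells, no cell with 50% of its reads and no change of direction when the cells' CPM were averaged. Alternatives changed the weight of cells, pseudocount, filters, Mki67 threshold, depth and scaling, or left out cells.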

Additional observations from a re-analysis of the deposited data

Results flagged for a closer look

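Of the 6 GMP that the cell filters left out, 2 held Mki67 reads above the floor of 3 counts, a signal in cells that no comparison used. GMP replicate 13 had 9 Mki67 reads (18.2 CPM) with 12.9% of its gene counts in mitochondrial genes, and replicate 23 had 21 reads (28.4 CPM) with 10.1% in mitochondrial genes. Both lay below the threshold of 50 CPM.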

How the results depend on the processing

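No paired analysis was possible because no label links cells to animals and both sides come from 1 sample. With the mean of the cells' CPM, the replication median was 0.23, the early granulocyte median -0.25, and Fos and Egr1 changed sign to -1.29 and -1.43. With every cell thinned, the medians of mitosis, replication and early granulocyte genes were 1.27, 0.21 and -0.29, and 7 replication genes were at least 2-fold higher. With a pseudocount of 5, 1725 genes were at least 2-fold higher and 1466 lower, and with a filter of 10 CPM, 1712 and 1435. The median of all genes was 0.011 without a filter, 0.00165 at an Mki67 threshold of 100 CPM, 0.12 when scaled to spike-in reads and -0.0156 when scaled by the median of ratios. Without the GMP at 50 CPM or more of Gata2, which left 10 positive and 12 negative cells, the all-gene median was 0.085 and the replication median 0.20, while Cdc7 (-0.38), Clspn (-0.61), Mthfd1 (0.49), Cdkn1a (-0.29), Cpa3 (-0.44), Klf1 (-2.82) and Jun (-0.17) changed sign. The causes were not tested.

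Leaving out each cell in turn gave 2579 to 2773 genes higher and 2276 to 2503 lower, and an all-gene median of 0.0378 to 0.0746. The medians were 1.33 to 1.71 for mitosis, 0.31 to 0.55 for replication, -0.70 to -0.46 for early granulocyte, 0.06 to 0.59 for monocyte and dendritic cell and 0.74 to 1.87 for mast cell and basophil genes. At least 2-fold higher were 62 to 72 mitosis and 9 to 14 replication genes. Fos ran from -0.0786 without replicate 3 to 3.01 without replicate 8, and Gata1 from -0.17 without replicate 30 to 4.37 without replicate 24. Of the 94 named genes past 2-fold, 92 kept their direction with the mean of the cells' CPM and 87 without the Gata2 cells, and all 94 did under the other settings apart from leaving out single cells. Genes named by the rule of size were picked to keep their direction in that mean, so those could not change sign there. Fewer stayed past 2-fold, 78 with the mean of the cells' CPM, 73 without the Gata2 cells, 81 when thinned and 85 at a threshold of 100 CPM.

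The sides are 1 sample each of 18 and 23 cells, and many mitosis genes rest on few cells, so no spread between animals is known.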
